A study of Mus musculus with 13 samples.

Results

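Camk2a, Calm2, Atp2b2 and Atp2a2 are 4 genes of calcium signalling, and their transcript levels were followed over 13 arrays of mouse brain. They were taken by name: every probe set that the array's annotation gives to one of these genes alone is described, which came to 5 probe sets of 10833 with a single gene, and 4 genes of 8251. Camk2a was read by 2 probe sets, designed from the GenBank records X14836 and X87142 and named by them. Calm2 was read by the probe set for AV122577, Atp2b2 by that for AF053471 and Atp2a2 by that for AF029982, which carries the manufacturer's mark for probes shared by more than 1 transcript. All 5 passed the filter on dim probe sets, and that of Atp2a2 was the brightest, with 95.5% of gene probe sets below its mean. The Camk2a and Calm2 probe sets had 52.1% to 60.4% of gene probe sets below theirs. These shares place a probe set on the array and do not rank the amounts of different transcripts.

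The study compared brain hemispheres of wild type and R6/2 mice, untreated or under a triple treatment. R6/2 mice carry a transgene with exon 1 of human HTT, whose CAG repeat is expanded, and are used as a model of Huntington's disease; the labels say no more on the transgene, its promoter or the strain. The treatment combined tacrine, a cholinesterase inhibitor, at 2.7 mg/kg/day from an age of 5 weeks, moclobemide, a monoamine oxidase A inhibitor, at 10 mg/kg/day, and 1% creatine in wet mash. The 4 groups were wild type untreated, wild type triple treatment and R6/2 triple treatment with 3 arrays each, and R6/2 untreated with 4. Because the sample descriptions name the drugs even for untreated mice, treatment was read from the titles. An age at harvest, 8 weeks, is given for 1 wild type untreated sample, and neither sex nor whether each array is a separate animal is stated, so the p-values measure the spread between these samples, which may be technical.

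Calcium that enters a neuron is read by calmodulin, a small protein that binds calcium ions and then activates its targets. One of these is the calmodulin-dependent protein kinase CaMKII, which can phosphorylate itself and stay active after a calcium signal has passed. Its alpha subunit, the product of Camk2a, is abundant at excitatory synapses of the forebrain and is needed for long-term potentiation. Pumps then restore low calcium: the plasma membrane calcium ATPases, among them PMCA2 from Atp2b2, move it out of the cell, and the SERCA pumps, among them SERCA2 from Atp2a2, move it into the endoplasmic reticulum.

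Signals are intensities on a linear scale on arrays brought to a common trimmed mean before deposit, and the median of gene probe sets was 39.6 to 45.1 per array. Untreated R6/2 arrays 2 and 3 stood apart, at 25.4 and 45.7 on the first principal component against 4.09 or less on the others. On untreated R6/2 arrays 2, 3 and 4 the control probe sets read 1.2 times those of another R6/2 array each (66 of 66 within a tolerance of 0.05), so they gave no separate reading of RNA quality there. Markers of the labelled tissue were clear, with the synaptic gene Snap25 at a mean of 2988 in untreated wild type and 3144 in untreated R6/2 mice. Changes of the 4 genes that involve untreated R6/2 mice, and those of related genes where leaving arrays 2 and 3 out moved them most, are also given without these arrays.

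In untreated mice, 4 of the 5 probe sets differed between the genotypes. Both Camk2a probe sets and that of Atp2b2 were lower in R6/2 mice, that of Calm2 was higher, and that of Atp2a2 did not pass. The test was limma over 7453 probe sets with a threshold of 0.05 on the Benjamini-Hochberg adjusted p. It called 11.9% of all probe sets, 5.49% as higher and 6.41% as lower. For the same 4 probe sets the groups did not overlap, which was so for 26.2% of all probe sets. In treated mice, for treatment in either genotype and for the interaction of treatment with genotype, none of the 5 passed. The genes were picked with these results known, so their share of calls is a description.

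**Figure D1:**
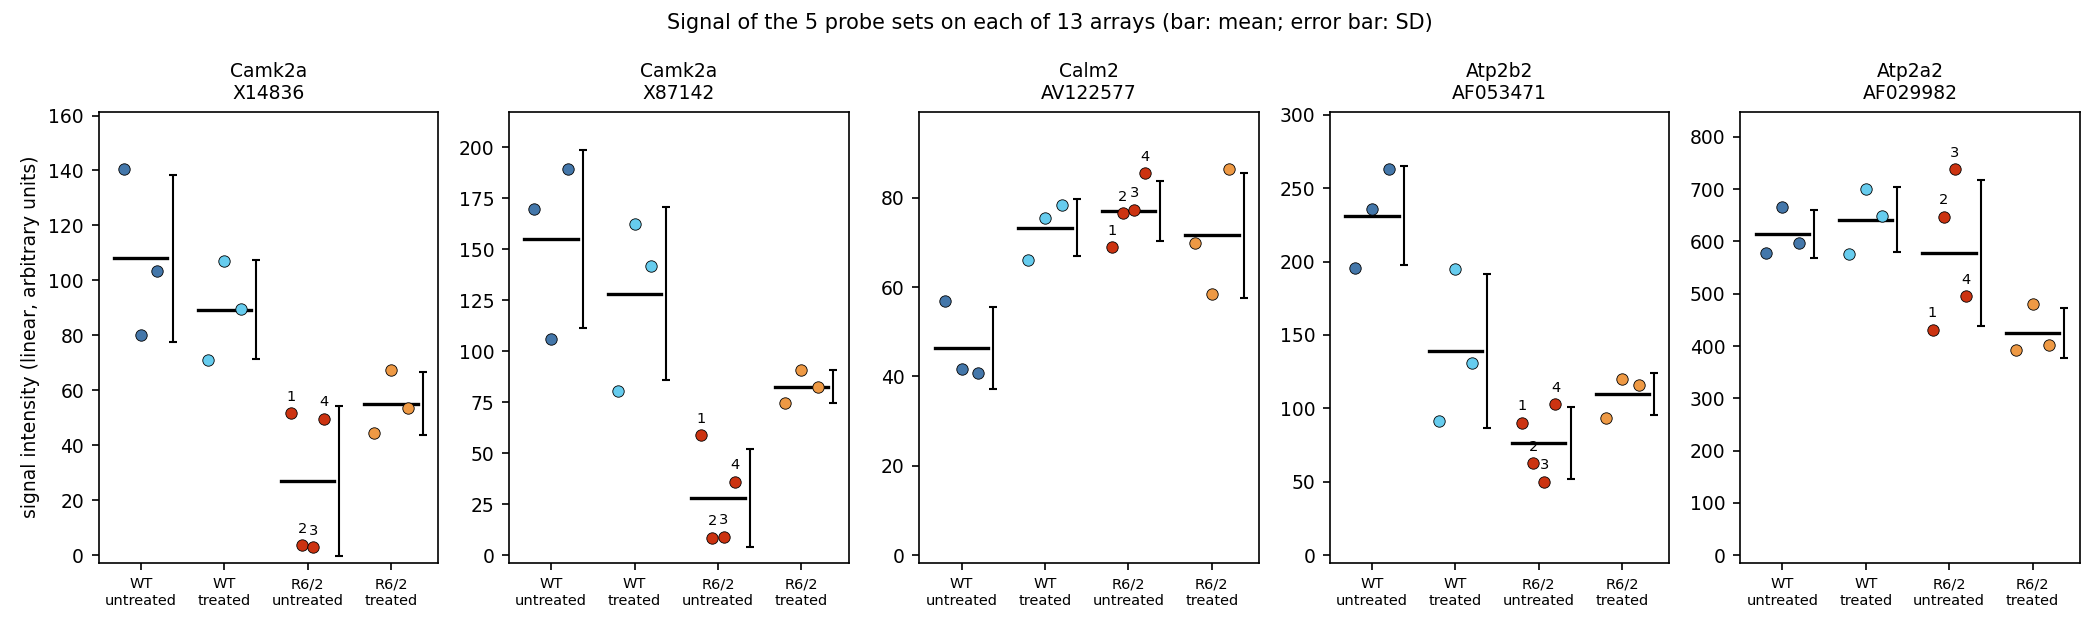
Signal intensity (linear scale, y axis) of the 5 probe sets on each array, by group; points are arrays, thick bars group means and error bars the SD, with the untreated R6/2 arrays numbered. Untreated R6/2 arrays 2 and 3 read 8.4 and 9 for Camk2a (X87142), far under arrays 1 and 4, while for Atp2a2 they are the highest of their group.

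The only probe set of Calm2, one of several genes that encode calmodulin, read higher in untreated R6/2 than in untreated wild type mice. It read 57, 41.6 and 40.7 on the wild type arrays, with 49.9% to 56.4% of gene probe sets below it. It read 68.9, 76.6, 77.4 and 85.5 on the R6/2 arrays. With no other probe set for Calm2, how closely these mid-range readings follow its transcript level was not tested. Every R6/2 array lay above every wild type array. The SD of log2 values was 0.13 in untreated R6/2 mice, as it was in treated wild type mice. The means were 46.4 ± 9.16 (SD, n = 3) and 77.1 ± 6.79 (SD, n = 4), a log2 change of 0.75 ± 0.17 (SE, limma adjusted p = 0.0163). The size was nearly the same, 0.74, without untreated R6/2 arrays 2 and 3, but the call was lost (adjusted p = 0.0851), as it was without wild type untreated array 2 (0.67, adjusted p = 0.0755) or 3 (0.66, adjusted p = 0.0797).

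Under treatment the genotypes overlapped for Calm2. Treated wild type arrays read 66.1, 75.4 and 78.5, all above the untreated wild type arrays. Between these 2 groups 21.8% of all probe sets had no overlap. Treated R6/2 arrays read 70, 58.5 and 86.4. In order of mean log2 level, untreated wild type came lowest and did not overlap the next group, while the other 3 groups overlapped one another. The genotype effect in treated mice was -0.05 ± 0.18 (SE, limma adjusted p = 0.987). The treatment effect was 0.67 ± 0.18 in wild type mice (SE, adjusted p = 0.289) and -0.12 ± 0.17 in R6/2 mice (SE, adjusted p = 0.734). The interaction, the difference between these treatment effects, was -0.79 ± 0.25 (SE, adjusted p = 0.305) and did not pass; it was -0.79 without untreated R6/2 arrays 2 and 3 as well (adjusted p = 0.461).

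In untreated mice Camk2a had the largest log2 differences between genotypes among the 4 genes. The X87142 probe set read 169.6, 105.8 and 189.1 in untreated wild type mice. It read 58.7, 8.4, 9 and 36 on untreated R6/2 arrays 1 to 4. All 4 lay below the wild type arrays, and they fell into 2 levels, with 22.2% and 22.9% of the probe sets of arrays 2 and 3 below Camk2a, and 57.2% and 45.5% of those of arrays 1 and 4. The log2 change was -2.91 ± 0.54 (SE, limma adjusted p = 0.00693), a 7.52-fold lower geometric mean. Arrays 2 and 3 stood 17.9-fold and 16.7-fold below the wild type mean of log2 values, array 1 stood 2.56-fold and array 4 stood 4.17-fold below it. Without arrays 2 and 3 the change was -1.71 (adjusted p = 0.0154).

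The other Camk2a probe set, X14836, had the same order of groups. It read 140.4, 80.1 and 103.4 in untreated wild type mice. It read 51.6, 3.5, 2.9 and 49.6 in untreated R6/2 mice. Again arrays 2 and 3 were low. Array 3 lay under the floor of 3.1 and was raised to it, and array 2 lay just above it. The log2 change was -3.03 ± 0.82 (SE, limma adjusted p = 0.0314), and -1.06 without arrays 2 and 3 (adjusted p = 0.049). On the scale of log2(value + 16), with no floor, it was -1.76 (adjusted p = 0.0138). The call was lost without wild type untreated array 1 (-2.82), 2 (-3.22) or 3 (-3.04), and without untreated R6/2 array 2 (-2.40) or 3 (-2.34), at adjusted p of 0.0932, 0.0797, 0.094, 0.0812 and 0.0727. With no filter (adjusted p = 0.0984) or with only the 2 groups fitted (adjusted p = 0.1) it was lost as well, whereas X87142 passed in all 22 alternatives.

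The spread of Camk2a was as uneven as its level. The SD of log2 values within untreated R6/2 mice was 2.28 for X14836 and 1.42 for X87142. These were larger than for 99.99% and 99.7% of the probe sets tested, whose median SD in that group was 0.26. In the other 3 groups the 2 probe sets had SDs of 0.14 to 0.53. The SD of Calm2 in untreated R6/2 mice was larger than for 13.5% of probe sets, that of Atp2b2 larger than for 87.8% and that of Atp2a2 larger than for 71.9%.

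**Figure D2:**
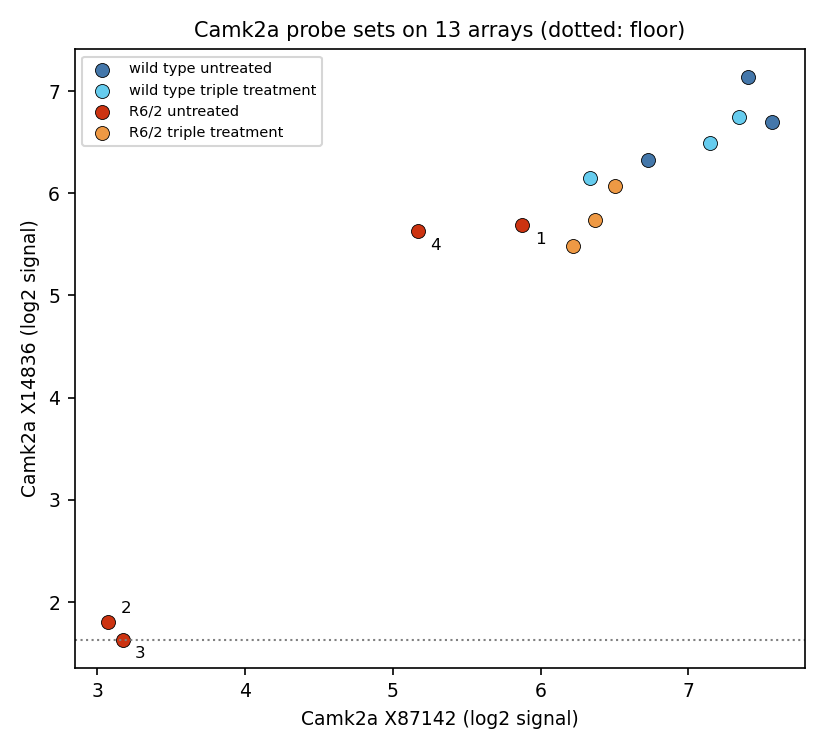
Log2 signal of the Camk2a probe sets, X87142 on the x axis and X14836 on the y axis, for 13 arrays coloured by group, with the untreated R6/2 arrays numbered and the floor dotted. Arrays 2 and 3 of untreated R6/2 mice lie alone at the lower left, at 3.07 and 3.17 on the x axis, and the other 11 arrays lie above 5.

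The readings from the Camk2a probe sets ran together over the arrays, with Pearson's r = 0.97 and Spearman's rho = 0.95 over 13 arrays that include the group differences, and r = 0.88 over the 11 arrays other than untreated R6/2 arrays 2 and 3. Both probe sets read the same RNA samples, so this describes agreement of 2 measurements. Whether they differed in any effect was tested on the log2 difference between them on each array, in a fit over 1064 such pairs from 925 genes. In untreated mice the genotype effect of X14836 was -0.12 ± 0.39 relative to X87142 (SE, limma adjusted p = 0.864), and 2.73% of pairs were called. In the treated genotype comparison the difference was -0.12 ± 0.41 (adjusted p = 0.993), and for treatment it was 0.03 ± 0.39 in R6/2 mice and 0.03 ± 0.41 in wild type mice, with no pair called in these 3 comparisons. For the interaction it was 0.00 ± 0.57 (adjusted p = 0.999), and 0.094% of pairs were called. Their standard errors, 0.39 to 0.57, limit the size of a difference that could be seen. Without untreated R6/2 arrays 2 and 3 the genotype effect differed by 0.65 (adjusted p = 0.326).

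Among treated mice Camk2a was lower in R6/2 arrays, by less than in untreated mice and without passing. For X87142 treated wild type arrays read 80.6, 162.2 and 141.6, and treated R6/2 arrays read 74.4, 90.9 and 82.5. These groups overlapped, through wild type treated array 1. For X14836 the values were 71, 107.1 and 89.7 in treated wild type and 44.6, 67.2 and 53.4 in treated R6/2 mice, with no overlap, as for 16.8% of all probe sets. The log2 changes were -0.58 ± 0.58 (SE, limma adjusted p = 0.894) and -0.70 ± 0.87 (adjusted p = 0.935), and 0.792% of probe sets passed in this comparison, with 0.711% as lower. The spread used for these standard errors is shared over all groups and includes that of untreated R6/2 arrays 2 and 3. Without those arrays X14836 had an adjusted p of 0.182 and X87142 of 0.424.

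Treated R6/2 arrays read higher than untreated ones for Camk2a. All 3 treated arrays exceeded all 4 untreated ones on X87142, as for 10.6% of probe sets in either direction, and the log2 change was 2.04 ± 0.54 (SE, limma adjusted p = 0.246). On X14836 treated array 1 (44.6) lay below untreated arrays 1 and 4, and the change was 2.07 ± 0.82 (adjusted p = 0.257). No probe set in the whole table passed for treatment in R6/2 mice (0%), while 1262 had an unadjusted p under 0.05. Without untreated R6/2 arrays 2 and 3 the changes were 0.84 and 0.10, both at an adjusted p of 0.9996. Without untreated R6/2 array 1, X87142 passed at 2.56 (adjusted p = 0.0217). In wild type mice treatment gave -0.29 ± 0.58 and -0.26 ± 0.87 on X87142 and X14836. The interaction was 2.33 on both (adjusted p = 0.315 and 0.407), and again no probe set of the table passed, with 1003 at an unadjusted p under 0.05. Leaving out untreated R6/2 arrays 2 and 3 made it 1.13 on X87142 (adjusted p = 0.48) and 0.36 on X14836 (adjusted p = 0.781).

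**Figure D3:**
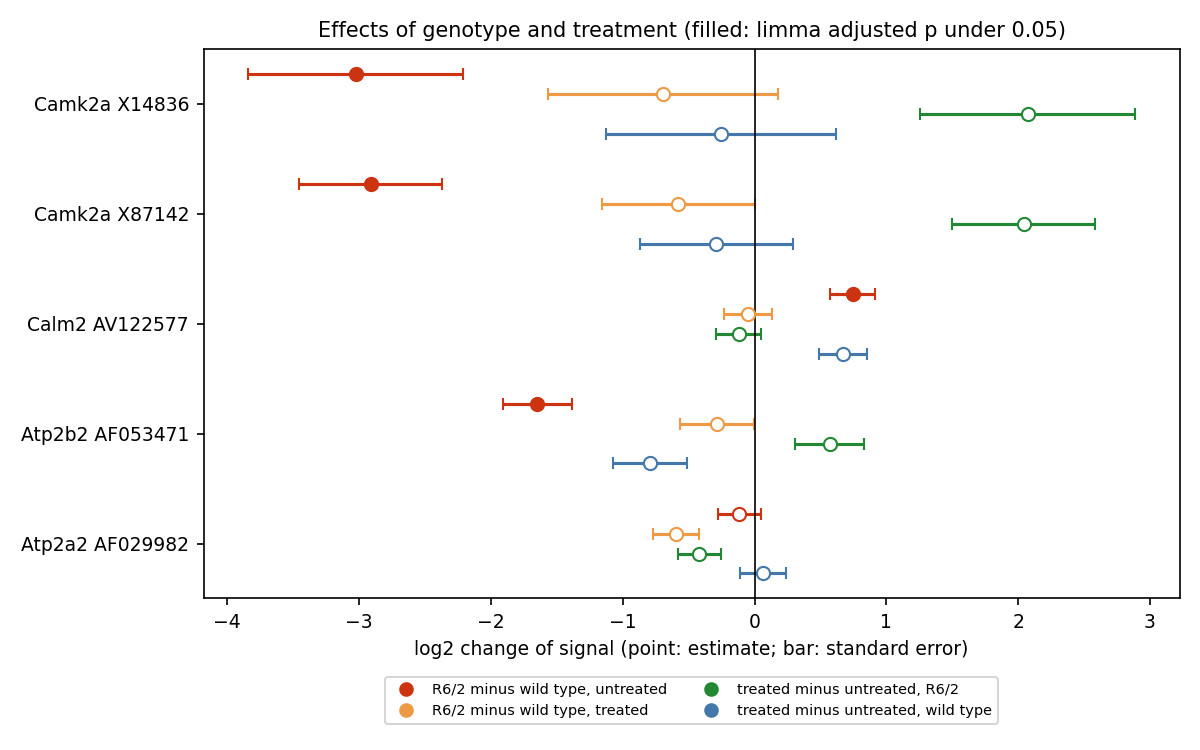
Log2 change of signal (x axis) for each probe set (y axis) in 4 comparisons, as point estimates with standard errors from the fit over all 13 arrays; filled points have a limma adjusted p under 0.05. The 4 filled points belong to the genotype comparison of untreated mice, where Camk2a and Atp2b2 lie below 0 and Calm2 lies above it.

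Atp2b2 encodes PMCA2, the plasma membrane pump that is strongest in neurons with heavy calcium traffic such as cerebellar Purkinje cells. It was lower in untreated R6/2 mice. The wild type arrays read 195.6, 235.7 and 262.9. The R6/2 arrays read 90.3, 62.7, 49.8 and 102.8. The highest R6/2 array was well below the lowest wild type array, and arrays 2 and 3 were again the lowest. The means were 231 ± 33.9 (SD, n = 3) and 76.4 ± 24.4 (SD, n = 4), a log2 change of -1.65 ± 0.26 (SE, limma adjusted p = 0.00301) or 3.13-fold. It passed in all 22 alternatives, with -1.25 without untreated R6/2 arrays 2 and 3 (adjusted p = 0.0255) and -1.81 to -1.46 without single arrays. By p-value it ranked 40th of 7453, against 94th and 525th for the Camk2a probe sets and 251st for Calm2.

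Atp2b2 also read lower in treated than in untreated wild type mice, at 91.4, 194.9 and 130.9 against the 195.6 to 262.9 above. The 3 treated arrays lay below all untreated ones and the highest of them lay just under the lowest untreated one; 21.8% of all probe sets had no overlap in this comparison. The log2 change was -0.79 ± 0.28 (SE, limma adjusted p = 0.369); no probe set of the table passed, and 769 had an unadjusted p under 0.05. Treated R6/2 arrays read 93.2, 120 and 115.9, within the range of treated wild type, and the genotype effect there was -0.28 ± 0.28 (adjusted p = 0.892). In R6/2 mice treatment gave 0.57 ± 0.26 (adjusted p = 0.286), and 0.18 without untreated R6/2 arrays 2 and 3. The interaction was 1.36 ± 0.38 (adjusted p = 0.305), and 0.97 without those arrays (adjusted p = 0.457). In order of mean log2 level, untreated wild type stood highest without overlap, and the other 3 groups overlapped with their neighbours.

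RefSeq (GRCm38.p6) gives Atp2b2 3 start sites on the minus strand of chromosome 6. The windows from 250 bases before to 50 bases after the first and second are shown because they differ in composition and the array value does not tell which start the transcripts used. The capitals mark GGGCGG, a GC box, on either strand. The first window (chr6:114042031-114042330) is 72.7% G and C, with 27 CpG pairs and 3 such matches. The second (chr6:113934632-113934931) is 54% G and C, with 8 CpG pairs and none. The third (chr6:113891490-113891789), not printed, has 2 matches. Of 32851 promoter windows of this length 35.7% hold GGGCGG, and the median G and C content is 52.7%. The other motifs searched on both strands, TGACG (held by 20.8% of windows), TATAAA (13.6%) and CACGTG (7.15%), were in none of the 3. Part of the windows was set aside before the members were looked up, and no other member was matched among the rest.
Atp2b2 start 1: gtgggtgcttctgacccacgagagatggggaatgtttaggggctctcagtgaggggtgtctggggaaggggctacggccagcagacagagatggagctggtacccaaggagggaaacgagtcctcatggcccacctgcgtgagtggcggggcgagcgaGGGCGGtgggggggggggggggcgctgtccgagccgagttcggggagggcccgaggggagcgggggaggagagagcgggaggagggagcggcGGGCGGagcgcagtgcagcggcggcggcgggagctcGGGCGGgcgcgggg
Atp2b2 start 2: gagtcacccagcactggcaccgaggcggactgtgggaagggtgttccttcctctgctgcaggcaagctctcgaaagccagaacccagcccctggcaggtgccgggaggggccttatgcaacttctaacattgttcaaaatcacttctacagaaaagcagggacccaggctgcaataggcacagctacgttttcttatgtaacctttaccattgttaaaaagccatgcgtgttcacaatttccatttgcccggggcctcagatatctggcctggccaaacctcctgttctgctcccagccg

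Atp2a2 encodes SERCA2, the pump that refills the endoplasmic reticulum with calcium in most cells. In untreated mice it did not separate the genotypes. Wild type arrays read 578.4, 666.4 and 597.8. R6/2 arrays read 431.4, 646.9, 738 and 495.6. Arrays 1 and 4 lay below all wild type arrays, and array 3 lay above them all. The log2 change was -0.12 ± 0.16 (SE, limma adjusted p = 0.658), and -0.41 without arrays 2 and 3 (adjusted p = 0.112). It crossed 0, to 0.01, without untreated R6/2 array 1.

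In treated mice Atp2a2 read 576.3, 699.7 and 649.5 in wild type and 392.4, 480 and 402.4 in R6/2 arrays. All 3 R6/2 arrays were below the wild type arrays, and 16.8% of all probe sets had no overlap in this comparison. The means were 642 ± 62.1 (SD, n = 3) and 425 ± 48 (SD, n = 3), a log2 change of -0.60 ± 0.17 (SE, limma adjusted p = 0.176), which did not pass. It passed with array weights (-0.68, adjusted p = 0.00915) and when untreated R6/2 arrays 2 and 3, which are not part of the comparison but enter the shared spread, were left out (-0.60, adjusted p = 0.0173). Treatment gave -0.42 ± 0.16 in R6/2 mice (adjusted p = 0.257), or -0.13 without those arrays, and 0.06 ± 0.17 in wild type mice (adjusted p = 0.946). The interaction was -0.48 ± 0.24 (adjusted p = 0.398), and -0.19 without those arrays (adjusted p = 0.77).

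The descriptions give the lot number 5270 to both untreated R6/2 array 4 and R6/2 treated array 1, and a number of its own to every other array. The title of the treated sample carries a different number, whereas on every other array the title and the description give the same one. Whether these 2 arrays shared a lot is thus not settled. Between these 2 arrays the treated minus untreated log2 difference was 1.05 for Camk2a on X87142 and -0.15 on X14836. It was -0.29 for Calm2, -0.14 for Atp2b2 and -0.34 for Atp2a2. With the stated lot as a block, which means something only if the description is right, the calls in untreated mice were kept: Camk2a was at -3.03 on X87142 (adjusted p = 0.00794), Calm2 at 0.72 (adjusted p = 0.0244) and Atp2b2 at -1.69 (adjusted p = 0.00467).

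Over the 13 arrays the members did not move as 1 block. Camk2a (X87142) and Atp2b2 correlated at r = 0.86, and at 0.77 without untreated R6/2 arrays 2 and 3. Calm2 ran the other way, at r = -0.46 with Camk2a and -0.68 with Atp2b2. Atp2a2 was at -0.16 with Camk2a over all arrays and at 0.63 over the 11 others. With the X14836 probe set of Camk2a it was at -0.25 and 0.80, and with Atp2b2 at 0.12 and 0.69. These are descriptions over arrays that share the group differences.

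The probe sets of other genes most like each member, by Pearson's r of log2 values over 13 arrays, also differed between members. For Camk2a they were Sncb, which encodes beta-synuclein (r = 0.97), the phosphofructokinase gene Pfkl (0.97), the actinin gene Actn1 (0.96), Znrf1 (0.96) and the muscarinic receptor gene Chrm1 (0.96). Without untreated R6/2 arrays 2 and 3 these were at 0.84 to 0.88. For Atp2b2 they were the PI3-kinase subunit gene Pik3r1 (0.95), the myelin gene Mobp (0.95), Btbd3 (0.94), Hltf (0.94) and Rgs4, a regulator of G protein signalling (0.94). For Calm2 they were Ddx27 (0.94), Rpia (0.92), Gprasp1 (0.92), Numb (0.91) and Ppl (0.90). For Atp2a2 they were the isoprenoid enzyme gene Idi1 (0.98), Fbxw7 (0.93), Nsg1 (0.91), the tachykinin gene Tac1 (0.90) and Sparcl1 (0.89).

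The wider calcium system was described with lists of 96 genes, each taken by its brightest probe set; 59 were on the array with a probe set of their own and 50 passed the filter. Without the 4 members, 8 of 46 fell and 2 rose in untreated R6/2 mice, against 6.41% of all probe sets as lower and 5.49% as higher. Of the estimates, 32 of 46 were below 0, against 3409 of 7453 over all probe sets. Their median log2 change was -0.22, against 0.04 over all probe sets. Without untreated R6/2 arrays 2 and 3, 4 fell and none rose, with a median of -0.14. That fit called fewer probe sets in all, so the shares above do not apply to it. In treated mice 2 fell and none rose, against 0.792% of all probe sets called, with a median of -0.06 against 0.03. Without those arrays, which enter that comparison through the shared spread, 4 fell and 1 rose, in a fit that called more probe sets in all. The counts over all probe sets in both fits are given in the last section. For treatment in either genotype and for the interaction none passed.

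Of the relatives of the members, no separate probe set was matched to Calm3, Camk2g, Atp2b1, Atp2b3 or Atp2b4. Camk2b, the beta subunit of CaMKII, was at -0.36 ± 0.11 in untreated mice (SE, limma adjusted p = 0.0513) and at -0.54 in treated mice (adjusted p = 0.0557). With untreated R6/2 arrays 2 and 3 left out, it was at -0.27 in untreated mice (adjusted p = 0.241) and passed in treated mice at -0.54 (adjusted p = 0.0193). Camk2d, the delta subunit, was at -0.49 ± 0.41 (adjusted p = 0.442) and at -0.16 without those arrays. Camk4, a nuclear calmodulin-dependent kinase, was at -0.57 ± 0.25 (adjusted p = 0.145) and at -0.68 without them. The kinase list thus had 1 fall in 4 genes measured, Camk2a itself, against 6.41% of all probe sets. The other SERCA genes did not pass, with Atp2a1 at -0.82 (adjusted p = 0.159) and Atp2a3 at -0.14 (adjusted p = 0.791); without those arrays they were at -0.49 and 0.36.

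In the list of pumps and exchangers, 1 of 6 genes fell, Atp2b2, and 1 rose, against 6.41% and 5.49% of all probe sets. The rise was Atp2c1, the calcium and manganese pump of the Golgi, at 0.79 ± 0.21 (limma adjusted p = 0.0326), and at 0.72 without untreated R6/2 arrays 2 and 3 (adjusted p = 0.149). Slc8a1, a sodium-calcium exchanger, was at 0.41 (adjusted p = 0.113).

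Among 13 regulators and targets of calmodulin, 2 fell and 1 rose, against 6.41% and 5.49% of all probe sets. Nrgn, neurogranin, which holds calmodulin at the postsynapse, changed by -1.66 ± 0.33 (adjusted p = 0.0105), and by -0.95 without untreated R6/2 arrays 2 and 3 (adjusted p = 0.0354). Pde1b, a phosphodiesterase that calmodulin activates, changed by -1.05 ± 0.16 (adjusted p = 0.00273), and by -0.85 without them (adjusted p = 0.0216). Marcks, a kinase substrate that binds calmodulin, rose by 0.52 ± 0.14 (adjusted p = 0.0333), but was at 0.31 without them (adjusted p = 0.221). In treated mice Marcks was at 0.58 (adjusted p = 0.124), and passed without them (adjusted p = 0.0216), as did Pde1b at -0.79 (adjusted p = 0.0532 with them and 0.0151 without). Marcksl1 was at -0.52 (adjusted p = 0.0994), and at -0.23 without them. The calcineurin subunits Ppp3ca, Ppp3cb, Ppp3cc and Ppp3r1 did not pass, at -0.11, -0.18, 0.32 and -0.20; without those arrays Ppp3ca was at -0.52 (adjusted p = 0.0435).

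Of 5 neuronal calcium sensors measured, 2 fell, against 6.41% of all probe sets. Hpca, hippocalcin, changed by -0.84 ± 0.12 in untreated mice (adjusted p = 0.0013) and by -0.92 in treated mice (adjusted p = 0.00348). Hpcal1 changed by -0.38 ± 0.12 (adjusted p = 0.0475), and did not pass without untreated R6/2 arrays 2 and 3 (adjusted p = 0.133). Vsnl1 and Ncs1 were at -0.47 and -0.32 and did not pass, and at -0.59 and 0.01 without those arrays.

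Of 8 voltage-gated calcium channel subunits, 2 fell in untreated mice, against 6.41% of all probe sets. Both encode auxiliary alpha2-delta subunits: Cacna2d3 changed by -0.57 ± 0.14 (adjusted p = 0.024) and Cacna2d1 by -0.66 ± 0.19 (adjusted p = 0.0393). Neither passed without untreated R6/2 arrays 2 and 3 (adjusted p = 0.128 and 0.248). In treated mice Cacna2d3 passed at -0.73 (adjusted p = 0.0357), and Cacna2d1 was at 0.16. The pore subunit Cacna1a was at -0.76 (adjusted p = 0.0702) and Cacnb2 at -0.42 (adjusted p = 0.0836), and they were at -0.38 and -0.21 without those arrays.

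Among the 5 genes of calcium release and its scaffolds 1 fell, against 6.41% of all probe sets. It was Homer1, at -1.29 ± 0.38 (limma adjusted p = 0.0444), and at -0.71 without untreated R6/2 arrays 2 and 3 (adjusted p = 0.125). Its product links glutamate receptors to calcium stores. The ryanodine receptor genes Ryr2 and Ryr3 were at -0.02 and -0.09, Itpr2 at 0.07 and Stim1 at 0.04; without those arrays they were at -0.22, -0.05, -0.36 and 0.20. A dimmer probe set of Ryr3 was at 0.38 (limma adjusted p = 0.172). Ryr1 did not pass the filter and was not tested. It read 27.4 to 40.7 in untreated wild type and 5.9 to 14.7 in untreated R6/2 mice. In treated mice it read 25.3 to 39.9 and 7.3 to 12.8. Neither pair of groups overlapped, as for 26.2% and 16.8% of the probe sets tested. Among 8 buffers and storage proteins 1 fell, against the same 6.41%. This was Calb2, calretinin, which fell by 0.71 (limma adjusted p = 0.0369), and was at -0.35 without those arrays (adjusted p = 0.246). Calb1, Pvalb and S100b were at -0.11, -0.39 and 0.18, and the chaperone gene Hspa5 was at 0.31 (adjusted p = 0.106). Without those arrays these 4 were at -0.25, -0.11, -0.08 and 0.17. S100a1 was at -0.20 (limma adjusted p = 0.346), and at -0.09 without them.

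**Figure D4:**
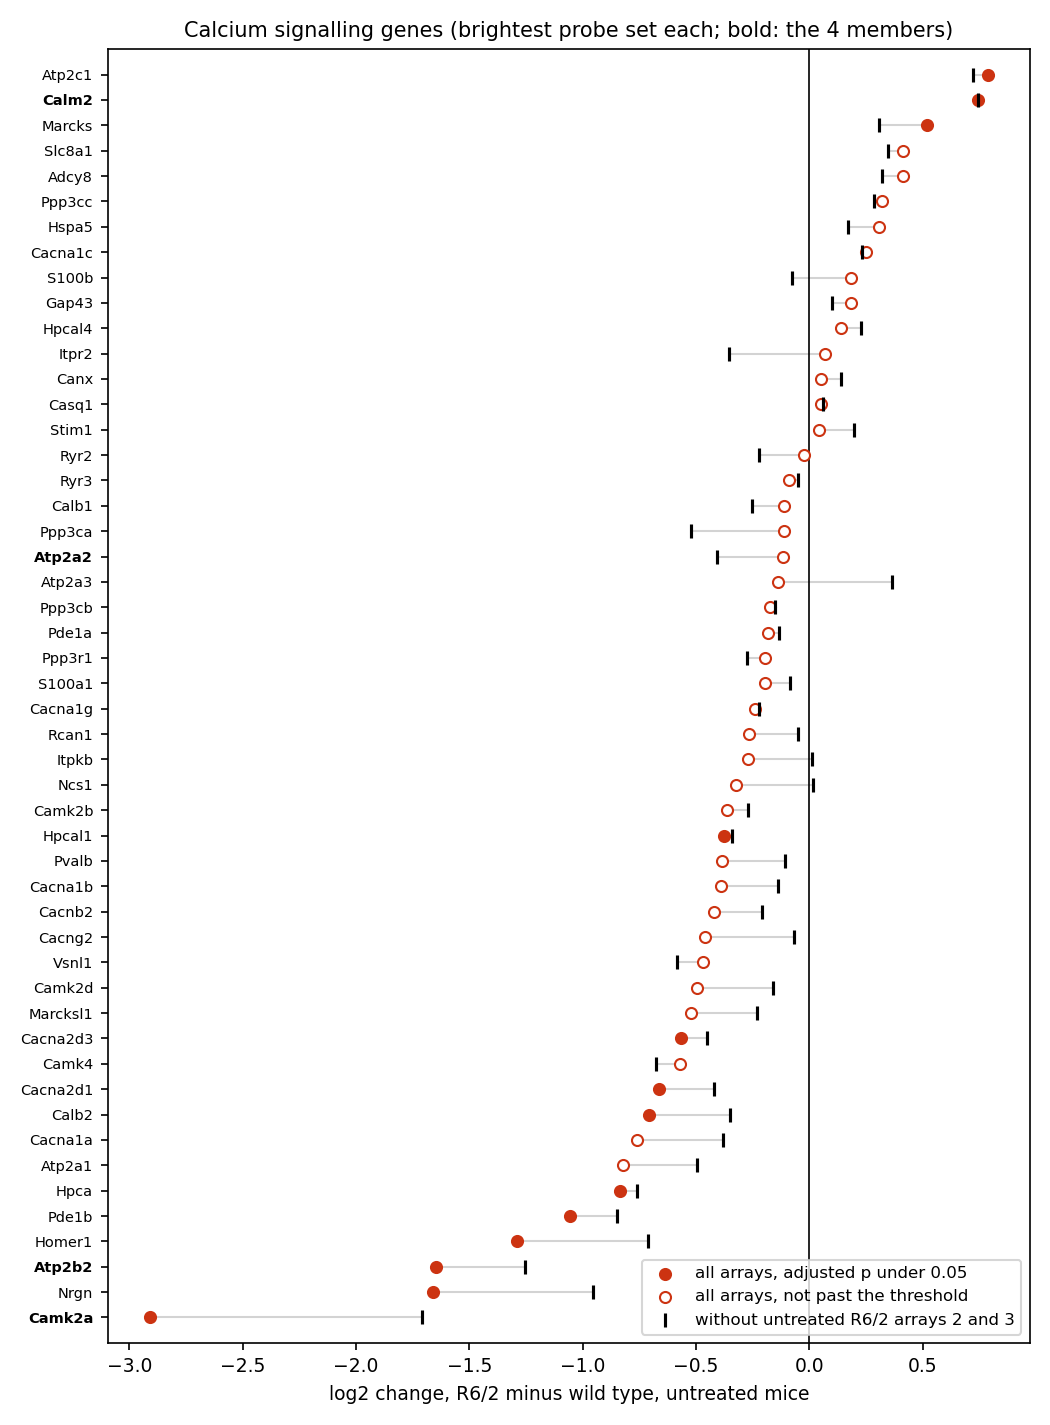
Log2 change between R6/2 and wild type in untreated mice (x axis) for the 50 measured calcium genes (y axis, ordered by change; members in bold), from all arrays (circles, filled at a limma adjusted p under 0.05) and without untreated R6/2 arrays 2 and 3 (ticks). Camk2a is lowest, at -2.91 and -1.71, while Calm2 stays at 0.75 and 0.74.

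In tissue samples, fewer cells of a type and less RNA per cell cannot be told apart. The summed signal of 4 forebrain excitatory neuron markers, of which Nrgn is also a calcium gene, was 1205 to 1515 in untreated wild type and 667 to 963 in untreated R6/2 mice. In treated mice it was 1118 to 1523 and 811 to 1028. Of these markers Nrgn and Neurod2 fell in untreated mice, while Neurod6 (-0.27) and Tbr1 (0.20) did not pass; without untreated R6/2 arrays 2 and 3, 1 of the 4 was called, Nrgn. On untreated R6/2 arrays 2 and 3, where Camk2a was lowest, the sum was 667 and 963, the lowest and the highest of that group. The 4 markers did not move together there, so the sum does not stand for each of them. Leaving these arrays out moved Nrgn from -1.66 to -0.95 and Neurod2 from -0.51 to -0.29. It moved Neurod6 from -0.27 to -0.56 and Tbr1 from 0.20 to -0.03. The 10 neuronal markers summed to 10807 to 11030 in untreated wild type and 8790 to 10063 in untreated R6/2 mice, with 3 falls (Syp, Map2 and Eno2) among 10, against 6.41% of all probe sets. Without those arrays 1 was called, Syp; Map2 had an adjusted p of 0.117 and Eno2 of 0.158.

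Cerebellar markers, relevant to Atp2b2, summed to 999.8 to 1200 in untreated wild type and 876 to 1234 in untreated R6/2 mice. Most of this sum came from Reln, Calb1 and Zic1, at means of 305, 303 and 208 in untreated wild type mice. Pcp2, Neurod1 and En2 had means of 55.1, 43.8 and 37.5 there, and Car8 and Gabra6 did not pass the filter. How well the sum measures cerebellar content was not tested. Of 8 measured 1 fell, Reln, and Pcp2, a Purkinje cell gene, was at 0.12 (adjusted p = 0.833). Oligodendrocyte markers summed to 4046 to 4469 and 2384 to 3062, and 4 of 7 fell. Striatal markers summed to 2042 to 2261 and 842 to 1256, with 2 of 3 lower, and thalamic and midbrain markers to 830 to 908 and 420 to 642, with 3 of 5 lower. Astrocyte markers, 2 of 7 lower, summed to 3358 to 3402 and 2877 to 3379, and microglial markers, 1 of 7 higher, to 1064 to 1342 and 1242 to 1415. These directions did not hold for the lists as a whole. The median log2 change was 0.18 for astrocytes, with 3 of 7 estimates below 0, and -0.16 for microglia, with 4 of 7 below 0. The brightest genes, which weigh most in the sums, were Aldoc (mean 1622 in untreated wild type mice) and Ctss (332). Muscle and blood markers had 1 fall each, of 9 and of 3, and those of endothelium, choroid plexus and pituitary had no call. Of all probe sets, 6.41% were called lower and 5.49% higher between the untreated genotypes. When untreated R6/2 arrays 2 and 3 were left out and 163 of 7453 probe sets were called, 2 of 7 oligodendrocyte, 1 of 3 striatal and 1 of 5 thalamic and midbrain markers were lower, and those of cerebellum, astrocytes, microglia, blood and muscle had no call. The part of these shifts in the changes of Camk2a, Calm2, Atp2b2 and Atp2a2 was not tested.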

How the data were processed

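Total RNA from whole brain hemispheres was read on Affymetrix MG-U74Av2 arrays. The authors deposited linear intensities. A mean trimmed by 2% at both ends was 100.05 to 100.13 on every array, so the arrays share 1 scale; the software is not given in the sources used here. Values below 3.1, the 10th percentile, were raised to it and log2 was taken. Of 12422 gene probe sets, 7453 were tested, those whose mean log2 reached the 40th percentile, equal to a signal of 24.9. Probe sets were named from GEO's platform annotation: 10833 had 1 gene, 396 several and 1193 none. A mean per title group was fitted with limma 3.58.1 (R 4.3.3) over all 13 arrays, with an intensity trend, and p-values were adjusted over all probe sets by Benjamini-Hochberg. Pairs of probe sets of 1 gene were fitted on their log2 differences. Alternatives changed the floor, the filter, the normalization, the groups fitted, array weights, the lot block or the arrays kept. Scripts were tested on simulated data.

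All member probe sets were named whatever their values, together with their gene families, of which 1 gene is not reported here. Of each calcium list up to 4 genes with the smallest p in untreated mice were named, plus those passing elsewhere; further genes named were chosen after their values were seen. Members, lists and the removal of untreated R6/2 arrays 2 and 3 were chosen with earlier results of these data known. Arrays are numbered in accession order. The number of arrays limits the precision, and the platform gives no depth.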

Additional observations from a re-analysis of the deposited data

How the results depend on the processing

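Camk2a (X87142) and Atp2b2 kept their direction and call in untreated mice in all 22 alternatives. Counts over all probe sets moved most: for genotype in untreated mice from 887 to 512 with no filter, 243 with only the groups compared, 163 without untreated R6/2 arrays 2 and 3, and 157 to 1308 without single arrays (157 without wild type untreated array 2, 220 without array 3 and 392 without array 1; 397 and 491 without untreated R6/2 array 2 or 3). For genotype in treated mice 59 became 208 with array weights, 119 without untreated R6/2 arrays 2 and 3 and 20 to 95 without single arrays (20 or 35 when R6/2 treated array 1 or 3 was left out, 31 or 33 when wild type treated array 1 or 3 was, 95 without untreated R6/2 array 3). For treatment in R6/2 mice 0 became 1 with no filter or without those 2 arrays and 0 to 116 without single arrays (116 without untreated R6/2 array 1). For treatment in wild type mice 0 became 2 with log2(value + 16) or no filter, 9 with only the groups compared, 120 with array weights, 8 without those 2 arrays and 0 to 6 without single arrays.

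The count of members called in untreated mice was 2 to 4 without single arrays (2 without wild type untreated array 2 or 3). It became 1 in treated mice with array weights or without untreated R6/2 arrays 2 and 3 (Atp2a2, -0.68 and -0.60), 1 for treatment in wild type mice with array weights (Calm2, 0.73, adjusted p = 0.0394), and 0 to 1 for treatment in R6/2 mice without single arrays. In untreated mice Camk2a on X14836 was at -3.03 and uncalled with no filter or only the groups compared, and ranged from -3.69 to -2.34 without single arrays; it was -1.76 and called with log2(value + 16) and no floor. It lay below the filter at the 60th percentile. Calm2 ranged from 0.66 to 0.90 and was uncalled at 0.74 without untreated R6/2 arrays 2 and 3; Atp2a2 ranged from -0.25 to 0.013. Without untreated R6/2 array 1, Camk2a on X87142 passed for treatment in R6/2 mice, with a range of 1.62 to 2.56.

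Uncalled values near 0 changed sign. Without single arrays Calm2 ranged from -0.19 to 0.089 for genotype in treated mice and from -0.26 to 0.017 for treatment in R6/2 mice. For treatment in wild type mice Camk2a on X87142 ranged from -0.54 to 0.012 and Atp2a2 from -0.0030 to 0.14. The difference of X14836 from X87142, -0.12 in untreated mice, was 0.32 with log2(value + 16), 0.035 with array weights, 0.65 without untreated R6/2 arrays 2 and 3 and -0.48 to 0.19 without single arrays. In treated mice it was -0.21 to 0.028. For treatment in R6/2 mice it was -0.35, -0.095 and -0.74 under the same 3 alternatives, -0.026 with the stated lot as a block and -0.27 to 0.40 without single arrays. For treatment in wild type mice it was -0.14 to 0.16. For the interaction it was 0.0093 with quantile normalization and -0.31 to 0.36 without single arrays. The cause of these shifts was not tested. No paired analysis was possible because the labels give no replicate numbers shared between groups.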
